A study of Mus musculus with 8 samples.

Results

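Open chromatin was examined at 10 regeneration-associated growth genes in mouse retinal ganglion cells (RGCs), the neurons whose axons form the optic nerve. The genes were Gap43, Basp1, Stmn2, Chl1, Ecel1, Sprr1a, Gadd45a, Gadd45g, Sox11 and Smad1, chosen by name as genes known from axon regrowth. Peaks of the 8 deposited ATAC-seq lists were merged into 189914 regions, and a region belonged to a gene when it overlapped the gene or the 10 kb on either side of it. This gave 80 regions. In ATAC-seq a transposase inserts sequencing adapters into accessible DNA, and a peak is a stretch where insertions pile up above the surroundings.

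All samples came from adult C57BL/6J mice that received an adeno-associated virus (AAV2) in the vitreous body, optic nerve crush 2 weeks later and dissociation of the retina 3 days after the crush. The virus was AAV2-GFP in the control group (GFP, 3 samples), AAV2-Ezh2 in the Ezh2 group (3 samples) and AAV2-Ezh2-Y726D in the Ezh2-Y726D group (2 samples). Ezh2 is the catalytic subunit of polycomb repressive complex 2, which methylates histone H3, and Ezh2-Y726D is a form without catalytic activity. No uninjured or uninjected sample was among them, so what crush or virus does to these genes cannot be seen here. Each library was made from 50000 cells sorted for CD90.2, the Thy1 surface protein, which RGCs carry and T cells carry as well. The labels do not say that replicates came from separate animals, so p-values measure the spread between these samples, which may be technical.

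Regeneration-associated genes are a set that injured peripheral neurons switch on when they regrow an axon, and that adult neurons of the central nervous system switch on weakly or briefly. Gap43, Basp1 and Stmn2 act on the membrane skeleton and the microtubules of the growth cone, Chl1 is an adhesion molecule of the L1 family, and Ecel1 and Sprr1a are induced by axotomy. Gadd45a and Gadd45g are stress-inducible nuclear proteins linked to DNA demethylation, and Sox11 and Smad1 are transcription factors, Smad1 being the effector of bone morphogenetic protein (BMP) receptors. Growth genes of this kind can be held ready by open promoters and distal elements, or need them to be opened.

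Of the 10 genes, Sprr1a was the only one with no region shared by all lists, and its promoter sequence is shown because its single region lay there. Gadd45a and Gadd45g are shown for contrast, as promoters with a peak in every list. The sequences are the 250 bases before the start from RefSeq (GRCm38.p6), 5′ to 3′ on the strand of the gene. For Sprr1a (chr3:92485882-92486131, minus strand) capitals mark the letters TGANTCA of the AP-1 motif. For Gadd45a (chr6:67037408-67037657, minus strand) and Gadd45g (chr13:51846425-51846674, plus strand) they mark CpG dinucleotides.
Sprr1a: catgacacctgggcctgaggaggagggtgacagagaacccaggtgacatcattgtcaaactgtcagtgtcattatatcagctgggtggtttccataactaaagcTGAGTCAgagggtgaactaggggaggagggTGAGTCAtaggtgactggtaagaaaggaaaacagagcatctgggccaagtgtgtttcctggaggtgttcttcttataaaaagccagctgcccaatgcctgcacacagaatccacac
Gadd45a: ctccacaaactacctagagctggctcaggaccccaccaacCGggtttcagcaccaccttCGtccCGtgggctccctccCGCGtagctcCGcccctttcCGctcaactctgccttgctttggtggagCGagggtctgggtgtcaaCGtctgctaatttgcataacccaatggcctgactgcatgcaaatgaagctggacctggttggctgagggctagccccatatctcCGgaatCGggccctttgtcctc
Gadd45g: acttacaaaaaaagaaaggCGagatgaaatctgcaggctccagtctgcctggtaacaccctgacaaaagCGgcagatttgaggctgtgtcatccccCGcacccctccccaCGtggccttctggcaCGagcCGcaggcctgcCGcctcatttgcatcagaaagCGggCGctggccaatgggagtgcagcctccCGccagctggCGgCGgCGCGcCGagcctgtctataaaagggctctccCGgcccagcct

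RefSeq promoter windows, from 250 bases before to 50 after the start, were found for 8 of the 10 genes and not for Gap43 and Stmn2. The Sprr1a window held 0 CpG dinucleotides, against 14 in Gadd45a, 21 in Gadd45g and a median of 7 over 32851 promoters. Windows with no CpG made up 5.43% of all promoters. Of these, 2.58% had a peak of all 8 lists in a region overlapping the window, whereas 81.2% of windows with 7 or more CpG did. Sprr1a thus belonged by sequence to a class of promoters that rarely carried a peak in these samples. The other windows held 38 CpG in Basp1, 31 in Smad1, 21 in Sox11, 13 in Chl1 and 6 in Ecel1.

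Both strands of each window were searched for 6 motifs. AP-1 (TGANTCA), the site of Jun and Fos family factors, was found in Sprr1a alone among the 8 windows, at -146 to -140 and at -116 to -110 bp from the start. At least 1 match occurred in 7.81% of all promoters and 2 or more in 0.460%. The core of Sox sites (ACAAT) was found in Sprr1a alone and in 31.0% of all promoters, and the TATA box (TATAAA) in Sprr1a and Gadd45g and in 13.6%. The E-box (CANNTG) was found in 5 of 8 windows and in 72.3% of all promoters, and none of the 8 held the cyclic AMP element (TGACGTCA, 1.79% of all) or the Smad element (CAGACA, 21.0%). None of these motifs overlapped an AP-1 match in the Sprr1a window. A match is a description of letters, not of a bound factor.

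Sprr1a, a small proline-rich protein first known from skin that axotomized neurons express, lies on chr3:92483954-92485881. Its only region, chr3:92485896-92486210, had a peak in Ezh2 replicates 2 and 3 and in no other list. The folds of these peaks over local background were 4.62 and 4.14, which ranked at the 47.2 and 41.5 percentile of their lists. Both summits lay in the printed sequence, at -162 and -158 bp from the start, upstream of both AP-1 matches. A peak in 2 of 3 Ezh2 lists and nowhere else was found for 2.46% of all regions, and the exact permutation test against GFP gave p = 0.4 (two-sided). An exact test of 3 against 3 samples cannot go below 0.1.

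Sequencing depth is unknown, since the lists hold no read numbers. The lists held from 112939 to 135895 peaks. Only ranks within a list were compared, and the percentile of a peak is its rank by fold among the peaks of its own list, from near 0 for the weakest to 100 for the strongest. RGC markers were at hand in every list, with a peak within 1 kb of a gene end in 18 to 20 of 20 genes, a list to which Stmn2 belongs. Of 20 microglia and macrophage markers, GFP replicates 1 to 3 carried peaks at 16, 13 and 17, Ezh2 replicates at 17, 16 and 17 and Ezh2-Y726D replicates at 6 and 6, with Aif1 and Fcrls at none in any list. Of 20 T cell markers, GFP carried peaks at 18, 17 and 20, each Ezh2 list at all 20 and Ezh2-Y726D at 10 and 9. Thy1, whose protein was used for sorting, is on both the T cell and the RGC list. Fewer peaks at markers of immune cells thus accompanied every comparison with Ezh2-Y726D below, and their part in those results was not tested. Markers of rods, Müller glia, bipolar and amacrine cells carried peaks in 16 to 20 of 20 genes per list.

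The share of regions common to all lists was close to that of the genome at large. Of their 80 regions, 31 had a peak in all 8 lists (38.8%, against 36.6% of all regions) and 12 in a single list (15.0%, against 17.2%). The median percentile of their peaks was 44.3, against 51.7 for all peaks. At the promoter, 6 of the 8 genes with a window had a peak of every list in a region overlapping it (75.0%, against 48.0% of all promoters). Chl1 had one in 7 lists and Sprr1a in 2. Such a peak could itself lie outside the window. Summits at Ecel1 lay past the window in every list, and those at Basp1 lay outside it in all lists but Ezh2 replicate 2. Open regions over the promoter were therefore the rule at these 8 genes in GFP as in the other groups. Among all windows with 7 or more CpG, the class of these genes save Sprr1a and Ecel1, the share was 81.2%.

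**Figure D1:**
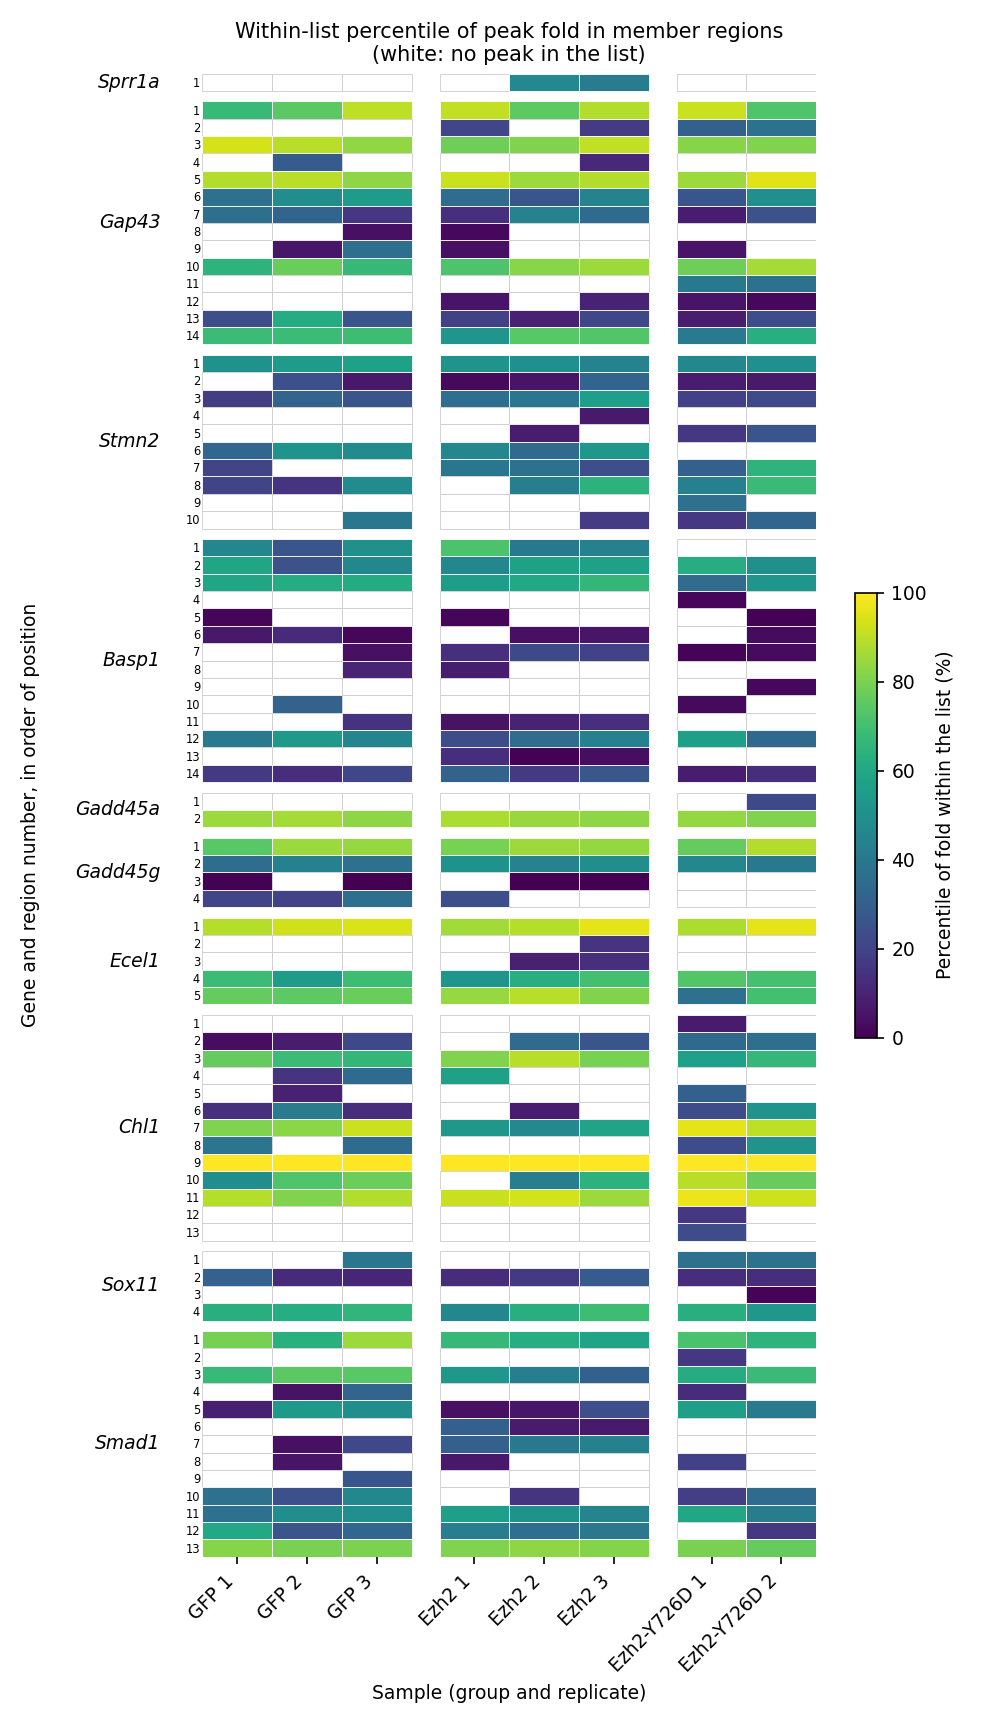
Within-list percentile of peak fold (colour, 0 to 100%) in the 80 regions of the 10 genes (rows, numbered by position) and the 8 samples (columns), with white where a list had no peak. Chl1 region 9 was near the top of every list, the Sprr1a row was filled in Ezh2 replicates 2 and 3 alone, and most rows showed no step between the groups.

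Regions are numbered along each gene by position. At the start of each gene, percentiles ranged from the bottom to the upper part of the lists. Gadd45a (chr6:67035096-67037407) had its start in region 2, with percentiles of 85.0, 86.7 and 83.1 in GFP, 87.3, 84.6 and 83.0 in Ezh2 samples and 83.7 and 80.9 in Ezh2-Y726D samples. Smad1 (chr8:79338395-79399428) had its start in region 13, at 81.7, 79.7 and 80.2 in GFP, 80.8, 83.0 and 81.4 in Ezh2 samples and 79.9 and 76.2 in Ezh2-Y726D samples. Both were high with little spread, and the groups overlapped, save that the Ezh2-Y726D values of Smad1 lay below all those of Ezh2. Basp1 (chr15:25363277-25413764) stood at the other end, with start region 14 at 16.8, 12.7 and 21.3 in GFP, 31.2, 16.7 and 27.0 in Ezh2 samples and 7.65 and 13.1 in Ezh2-Y726D samples. RefSeq also places the gene E230016M11Rik at the Gadd45a start region and Gm48957 at that of Basp1.

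By fold percentile most of the remaining starts lay between these. The −log10 q-value deposited for the same peaks gave another order, with 15.5 to 28.2 at the Basp1 start and 10.5 to 19.9 at that of Ecel1. Gadd45g (chr13:51846675-51848475) had percentiles from 35.4 to 50.9 in start region 2, Sox11 (chr12:27334268-27342718) from 46.7 to 68.9 in region 4, and Ecel1 (chr1:87142874-87157085) from 52.0 to 72.9 in region 4. At the Gadd45g start the Ezh2 values (44.5 to 50.9) lay above all GFP values (35.4 to 43.5). At the Ecel1 start both Ezh2-Y726D values lay above all others. At the start of Chl1 (chr6:103510584-103733038), region 2 was at 3.15, 7.69 and 21.7 in GFP, absent, 34.2 and 26.4 in Ezh2 samples and 33.6 and 36.3 in Ezh2-Y726D samples. All 3 GFP values at this start lay below all those of the other lists that had a peak, but the region was missing in Ezh2 replicate 1 and so was not tested. Strand was not given for Gap43 and Stmn2, and the regions nearest to one of their ends were at 40.8 to 73.9 (Gap43 region 14) and 44.5 to 56.8 (Stmn2 region 1). In both regions the Ezh2-Y726D values lay below all GFP values. None of the start regions that could be tested was called in any comparison by limma. Where tested, the separations named in this paragraph had limma adjusted p from 0.209 (Gap43 region 14) to 0.576 (Ecel1 region 4 against GFP), with 0.501 at Gadd45g. The share of all regions at which values separate groups in this way was not determined.

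**Figure D2:**
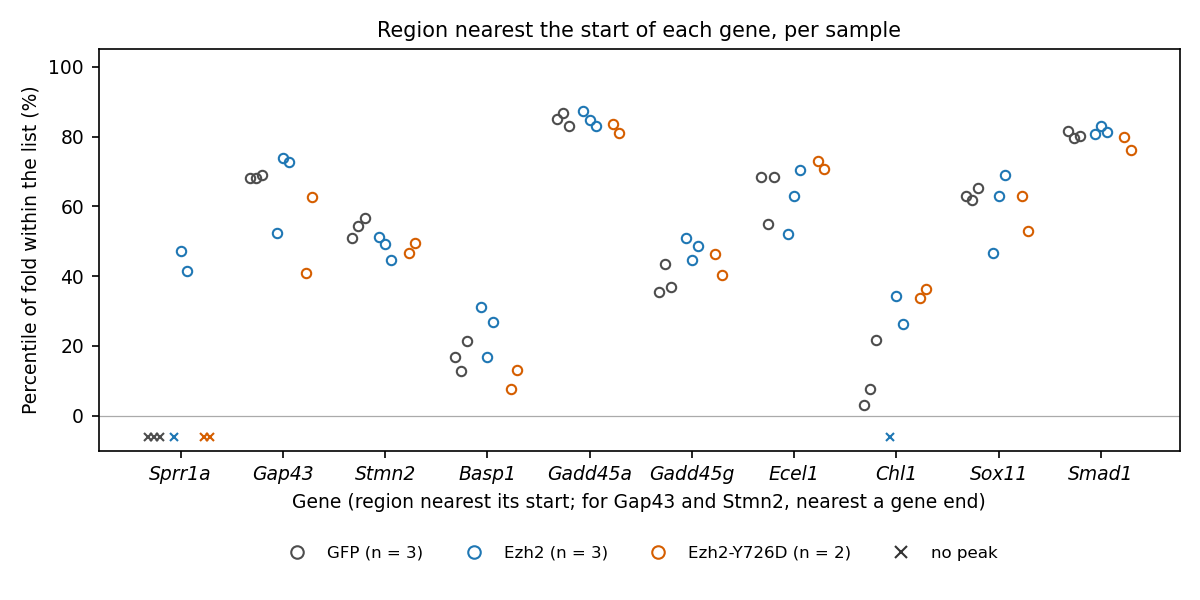
Within-list percentile of peak fold (vertical axis, %) in the region nearest the start of each gene, or nearest a gene end for Gap43 and Stmn2, with 1 circle per sample and a cross where a list had no peak. Gadd45a and Smad1 sat between 76.2 and 87.3 in all 8 samples and Basp1 between 7.65 and 31.2.

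Comparisons of each Ezh2 form with GFP and of the forms with each other were made for all regions with a peak in all lists, of which 31 belonged to the 10 genes. Ranks of fold were turned into normal scores, so that a difference of 1 is 1 SD of the ranked values in a list, and tested with limma over all 69493 such regions. A region is called higher or lower here at an adjusted p under 0.05. Presence was compared apart from rank, and a region is called gained when every sample of the first group and none of the second had a peak, and lost in the reverse case. Both comparisons with GFP share the same control samples.

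Ezh2 against GFP asks what extra Ezh2 did to these genes after crush. Of the 31 tested regions, 0 were higher (1.59% of all tested regions were) and 2 were lower (6.45%, against 2.84% of all), namely region 7 of Chl1 and region 3 of Smad1. With no adjustment, 6 of the 31 had p under 0.05 in limma (19.4%, against 20.0% of all). Of the 80 regions, 2 were gained (2.50%, against 2.72% of all), in Basp1 and Smad1, and 0 were lost (1.68% of all). The median difference was 0.02 over the 31 regions and 0.01 over all, and the median absolute difference 0.24 and 0.22. Leaving out GFP replicate 2 or 3, Ezh2 replicate 2 or 3 or Ezh2-Y726D replicate 2 left 1 region lower. Without GFP replicate 1 the lower count stayed at 2, but Smad1 region 3 lost its call and another region took its place. Without GFP replicate 3, Ezh2 replicate 1 or Ezh2 replicate 2 the gained regions came to 4, and without Ezh2 replicate 2 the lost ones to 2, or to 1 without GFP replicate 1 or 2 or Ezh2 replicate 1.

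Ezh2-Y726D against GFP asks the same of the form without catalytic activity. Of the 31 regions, 0 were higher (3.55% of all) and 0 were lower (4.65% of all), and 3 had an unadjusted p under 0.05 in limma (9.68%, against 24.4% of all). By presence, 4 regions were gained (5.00%, against 4.77% of all), 3 in Gap43 and 1 in Stmn2. Another 3 were lost (3.75%, against 4.72% of all), 1 each in Stmn2, Basp1 and Gadd45g. The median difference was -0.12 over the 31 regions and -0.01 over all, and the median absolute difference 0.22 and 0.28. With 2 samples in the group, 1 library moved the counts: 10 regions were gained and 5 lost without Ezh2-Y726D replicate 2, which also made 1 region lower, while 7 were gained without Ezh2-Y726D replicate 1 or GFP replicate 3 and 5 lost without GFP replicate 1.

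Ezh2 against Ezh2-Y726D asks what differed between the forms with and without activity. Of the 31 regions, 2 were higher in Ezh2 (6.45%, against 7.0% of all), in Ecel1 and Chl1, and 1 was lower (3.23%, against 6.96% of all), in Chl1. With no adjustment 8 had p under 0.05 in limma (25.8%, against 29.4% of all). By presence, 6 regions were gained in Ezh2 (7.50%, against 8.96% of all), 3 in Basp1, 2 in Smad1 and 1 in Stmn2, and 3 were lost (3.75%, against 6.14% of all), 1 each in Gap43, Chl1 and Sox11. The median difference was 0.02 over the 31 regions and 0.02 over all, and the median absolute difference 0.16 and 0.32. The higher count fell to 0 without Ezh2 replicate 2 or Ezh2-Y726D replicate 1 and to 1 without Ezh2 replicate 1 or Ezh2-Y726D replicate 2, the lower count rose to 2 without GFP replicate 1 or Ezh2 replicate 3, and the lost count rose to 12 without Ezh2-Y726D replicate 2 and to 6 without Ezh2-Y726D replicate 1 or Ezh2 replicate 2.

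**Figure D3:**
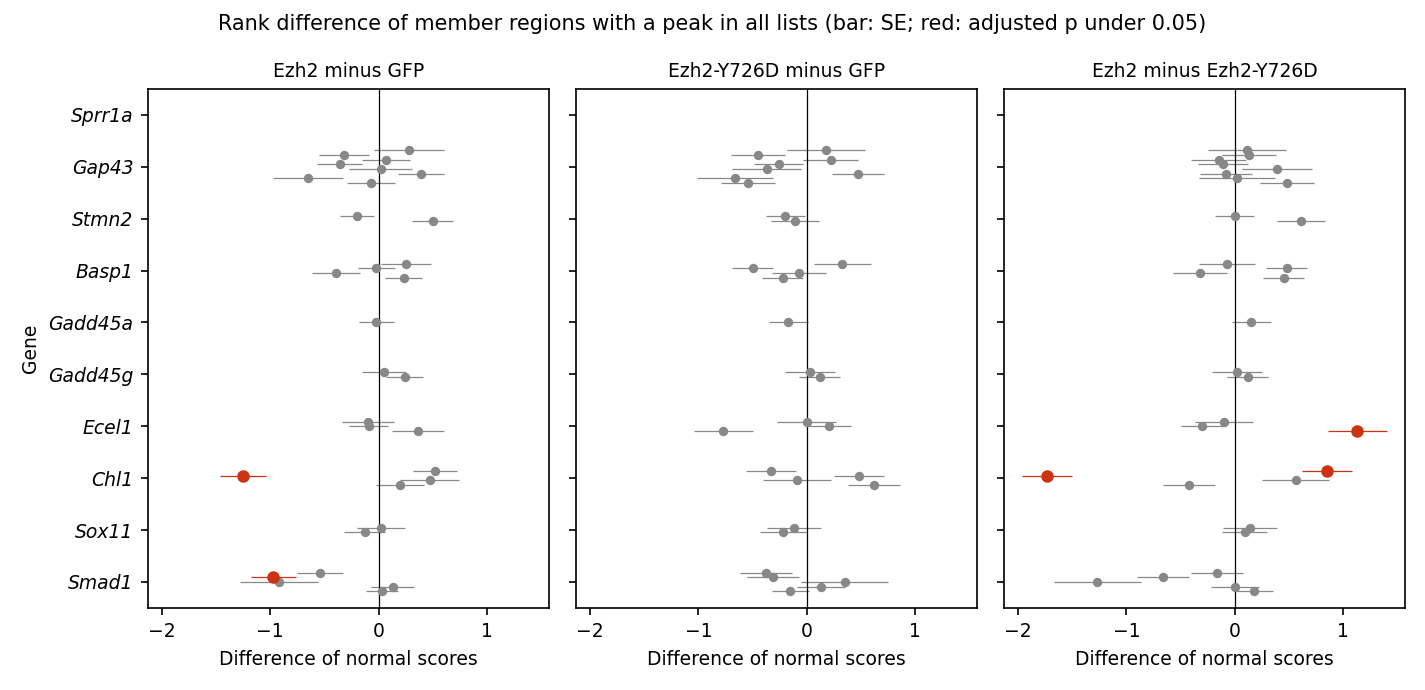
Difference of normal scores (horizontal axis) between groups for the 31 regions with a peak in all lists, by gene, with bars of 1 SE and calls in red, in 3 panels for the comparisons. Chl1 and Smad1 held the 2 regions called lower in Ezh2 than in GFP, and the middle panel, Ezh2-Y726D minus GFP, held no call.

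Chl1, the close homolog of the adhesion molecule L1, had the largest rank difference among the 10 genes in Ezh2 against either other group. Region 7, chr6:103585557-103586460, lies inside the gene at 75.1 kb past the start. Its percentiles were 80.8, 82.6 and 92.0 in GFP, 53.5, 47.2 and 58.0 in Ezh2 samples and 96.0 and 90.0 in Ezh2-Y726D samples, and its folds were 7.30, 8.14 and 9.53, then 5.13, 4.62 and 5.01, then 12 and 9.55. All 3 Ezh2 values lay below all others. The mean percentile was 85.1 ± 5.98 (SD, n = 3) in GFP, 52.9 ± 5.47 (SD, n = 3) in Ezh2 and 93.0 ± 4.21 (SD, n = 2) in Ezh2-Y726D. Region 7 was lower in Ezh2 than in GFP by -1.25 normal scores (SE 0.21, limma adjusted p = 0.0148) and lower than in Ezh2-Y726D by -1.73 (SE 0.23, limma adjusted p = 0.00211). Ezh2-Y726D against GFP gave 0.48 (SE 0.23, limma adjusted p = 0.244). Both calls were made in all 14 alternatives tried, with limma adjusted p from 0.00954 to 0.0492 against GFP and from 0.00161 to 0.0235 against Ezh2-Y726D.

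Region 3 of Chl1 had the opposite order to region 7. This region, chr6:103511617-103512946, at 1.4 kb past the start, was at 76.2, 68.0 and 66.3 in GFP, 81.2, 89.3 and 79.3 in Ezh2 samples and 56.5 and 66.6 in Ezh2-Y726D samples. Here all 3 Ezh2 samples lay above all others. The difference was 0.85 in Ezh2 against Ezh2-Y726D (SE 0.23, limma adjusted p = 0.0357) and 0.52 against GFP (SE 0.20, limma adjusted p = 0.188). The first call was lost in 7 of 14 alternatives, with adjusted p from 0.0510 to 0.220 in limma, among them each fit without Ezh2 replicate 1 (0.0623), Ezh2 replicate 2 (0.0945), Ezh2-Y726D replicate 1 (0.220) or Ezh2-Y726D replicate 2 (0.0947).

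Region 9 of Chl1, chr6:103648975-103649384, lay at 138.3 kb past the start and ranked from 99.5 to 100 in every list. It was narrow (410 bp) and its fold was 16.7, 17.4 and 15.2 in GFP, 19.5, 18.0 and 16.4 in Ezh2 samples and 18.9 and 15.0 in Ezh2-Y726D samples, the strongest peak at any of the 10 genes. The groups overlapped. In number, GFP lists held peaks at 8, 9 and 9 of the 13 Chl1 regions, Ezh2 lists at 5, 7 and 6 and Ezh2-Y726D lists at 12 and 8. Each Ezh2 list held fewer than each other list, and the difference of means was -2.67 against GFP and -4 against Ezh2-Y726D. Each had exact p = 0.1, the smallest that 3 against 3 or 3 against 2 samples allow, and 0.429 after adjustment over 30 tests. Counts also separated groups without overlap in some comparison at Gap43, Stmn2, Basp1, Gadd45g and Sox11. The share of all genes at which they do so was not determined. No separation of counts is therefore read as particular to these genes. With peaks of −log10 q of at least 5 alone (the q filter) the differences were -1 and -1.33, and the second was -2 without Ezh2-Y726D replicate 1 and -6 without Ezh2-Y726D replicate 2. Region 8 (chr6:103614437-103615099) was lost in Ezh2 against Ezh2-Y726D, with peaks at 38.9 and 34.4 in GFP replicates 1 and 3 and at 22.9 and 51.4 in Ezh2-Y726D.

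**Figure D4:**
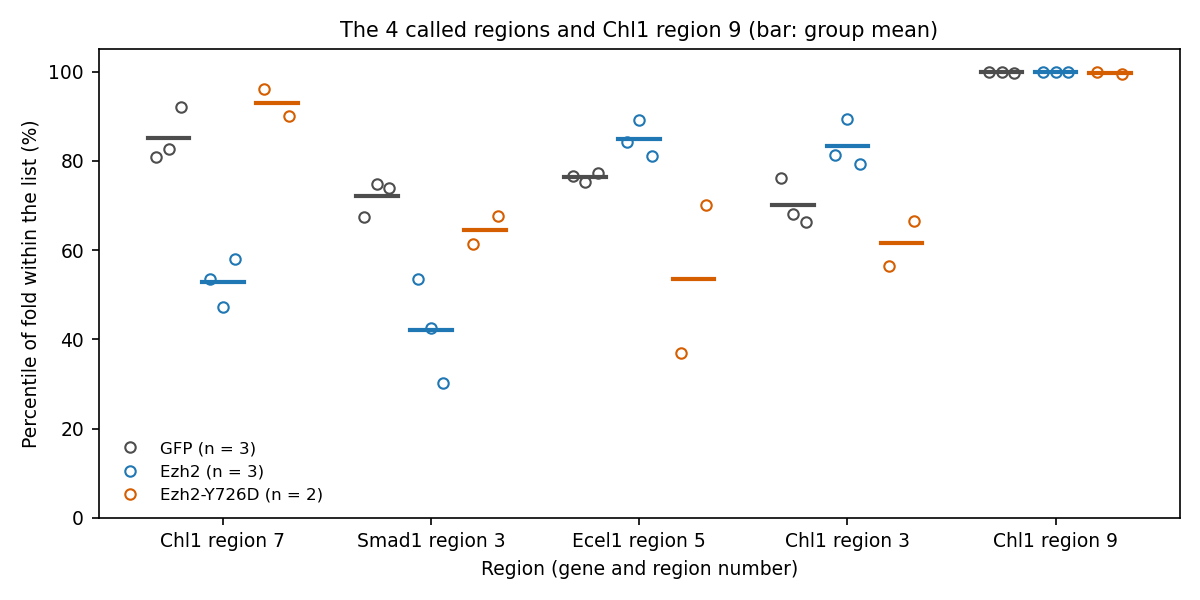
Within-list percentile of peak fold (vertical axis, %) in the 4 regions called by limma and in Chl1 region 9, with 1 circle per sample and a bar at each group mean. In Chl1 region 7 the Ezh2 samples sat between 47.2 and 58.0 and all others at 80.8 or above, whereas Chl1 region 9 stayed near 100 in all samples.

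Ecel1 encodes a membrane metalloprotease of nerve cells that nerve injury induces. Its strongest region, region 1 (chr1:87141873-87143131), at the far end of the gene, ranked from 86.0 to 95.9 with overlapping groups. RefSeq places the gene Gm51638 there as well. Region 5, chr1:87164004-87165196, lies upstream at -8.2 kb from the start, where RefSeq also places the noncoding RNA gene Gm33292, as it does at start region 4. It was at 76.5, 75.2 and 77.3 in GFP, 84.3, 89.2 and 81.0 in Ezh2 samples and 37.0 and 70.1 in Ezh2-Y726D samples. The order was Ezh2, GFP, Ezh2-Y726D with no overlap, but the 2 Ezh2-Y726D values lay far apart. Ezh2 exceeded Ezh2-Y726D by 1.13 (SE 0.27, limma adjusted p = 0.0204), and the call was lost in 3 of 14 alternatives, with a block on the numbers in the peak names (0.0626 in limma), without Ezh2 replicate 2 (0.0558 in limma) and without Ezh2-Y726D replicate 1 (difference 0.65, 0.173 in limma). Ezh2 against GFP gave 0.36 (SE 0.24, limma adjusted p = 0.447), and Ezh2-Y726D against GFP -0.77 (SE 0.27, limma adjusted p = 0.106), or -1.20 with adjusted p = 0.0431 in limma without Ezh2-Y726D replicate 2. Peaks were found in 3 of 5 Ecel1 regions in each GFP and Ezh2-Y726D list and in 3, 4 and 5 in Ezh2.

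Smad1 carries BMP signals to the nucleus. Region 3, chr8:79349996-79350568, inside the gene at 49.1 kb past the start, was at 67.4, 74.8 and 73.9 in GFP, 53.5, 42.5 and 30.2 in Ezh2 samples and 61.4 and 67.6 in Ezh2-Y726D samples. The Ezh2 samples were the lowest and overlapped with no other. The mean was 72.0 ± 4.02 (SD, n = 3) in GFP and 42.0 ± 11.7 (SD, n = 3) in Ezh2, a difference of -0.97 normal scores (SE 0.21, limma adjusted p = 0.0334). This call was lost in 9 of 13 alternatives, with limma adjusted p from 0.0505 to 0.110, including the fits without GFP replicate 1 (0.0647), 2 (0.110) or 3 (0.0818), Ezh2 replicate 2 (0.0727) or 3 (0.0920) or Ezh2-Y726D replicate 2 (0.0505). Against Ezh2-Y726D the difference was -0.66 (SE 0.24, limma adjusted p = 0.0932).

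Region 5 of Smad1 (chr8:79360337-79361110) was called in no comparison. It was at 8.60, 53.9 and 49.1 in GFP, 3.94, 5.60 and 23.8 in Ezh2 samples and 55.9 and 40.9 in Ezh2-Y726D samples, with differences of -0.92 against GFP (SE 0.36, limma adjusted p = 0.187) and -1.27 against Ezh2-Y726D (SE 0.40, limma adjusted p = 0.0631). The mean was lowest in Ezh2, but GFP replicate 1 lay below Ezh2 replicate 3. The region was named after its values were seen. Region 6 (chr8:79362477-79362779) had peaks in Ezh2 alone, at 30.3, 7.25 and 6.93, and was gained against both other groups. Region 7 (chr8:79370488-79371212) was at 29.8, 40.4 and 43.7 in Ezh2, at 4.16 and 21.6 in GFP replicates 2 and 3 and absent in Ezh2-Y726D, against which it was gained. In all, GFP lists held peaks at 7, 10 and 10 of the 13 regions, Ezh2 lists at 9, 9 and 8 and Ezh2-Y726D lists at 9 and 7.

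Gap43 and Stmn2, classical growth cone proteins, had no called rank difference, and the regions called between groups were called by presence. Gap43 (chr16:42248552-42340651) had peaks in 8, 10 and 10 of its 14 regions in GFP, 12, 8 and 11 in Ezh2 samples and 12 and 11 in Ezh2-Y726D samples. Its strongest region 5 (chr16:42293968-42295037) ranked from 83.0 to 95.0, with all groups overlapping. Region 11 (chr16:42332312-42332623) had peaks in Ezh2-Y726D alone, at 40.6 and 37.8. It was gained in Ezh2-Y726D against GFP and lost in Ezh2 against Ezh2-Y726D. Regions 2 and 12 were gained in Ezh2-Y726D against GFP as well, but Ezh2 replicates 1 and 3 also had peaks there, at 21.0 and 17.5 in region 2 and at 5.12 and 9.76 in region 12.

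Stmn2 (chr3:8509527-8561604), a protein that frees tubulin from microtubules, had peaks in 5, 5 and 6 of 10 regions in GFP, 5, 7 and 8 in Ezh2 samples and 8 and 7 in Ezh2-Y726D samples. For Gap43 and Stmn2 alike the Ezh2-Y726D lists held more regions than each GFP list, by 2.17 regions on average, with exact p = 0.1 and 0.429 after adjustment. Over the whole series the Ezh2-Y726D lists held 119970 and 124591 regions and the GFP lists 110790, 107916 and 129123. The share of all genes with such a separation was not determined. The difference at Gap43 came to 0.667 with the q filter and 1.5 without GFP replicate 1. At Stmn2 it came to 1.17 with the q filter or lists of equal length, 1.00 in the gene body alone and 1.5 with 1 kb flanks. Region 6 of Stmn2 (chr3:8525320-8525713) was at 33.0, 51.7 and 48.0 in GFP and 46.1, 34.2 and 52.9 in Ezh2 and absent in both Ezh2-Y726D lists. It was lost in Ezh2-Y726D against GFP and gained in Ezh2 against Ezh2-Y726D. The reverse held for region 5 (chr3:8521271-8521872), which was gained in Ezh2-Y726D against GFP, with peaks at 15.7 and 26.5 there and at 7.96 in Ezh2 replicate 2. Presence within Stmn2 thus moved in both directions. Over the 80 regions the gained and lost shares in Ezh2-Y726D against GFP (5.00% and 3.75%) were near those of all regions (4.77% and 4.72%).

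Basp1, a membrane protein that Gap43 resembles in function, had peaks in 7, 7 and 9 of 14 regions in GFP, 10, 9 and 9 in Ezh2 samples and 7 and 8 in Ezh2-Y726D samples. The Ezh2 lists held more than the Ezh2-Y726D lists, by 1.83 regions on average (exact p = 0.1, 0.429 after adjustment). This difference was 0 where a peak had to cover 0.5 of a region, 0.833 in the gene body alone or with 1 kb flanks, 2.83 with lists of equal length and 3.00 with the q filter. Region 1 (chr15:25354688-25355563) was at 46.4, 25.9 and 49.9 in GFP and 71.5, 40.3 and 43.1 in Ezh2, with no peak in either Ezh2-Y726D list. Region 13 (chr15:25403556-25404251) had peaks in Ezh2 alone, at 13.0, 0.595 and 3.25, near the bottom of the lists. Region 11 (chr15:25392125-25392942) was at 4.92, 9.38 and 13.3 in Ezh2 and 14.5 in GFP replicate 3, and absent in Ezh2-Y726D. The strongest region, region 3 (chr15:25364076-25365144), ranked from 35.1 to 66.3 and was called in no comparison.

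Gadd45a and Gadd45g held few regions, 2 and 4. Besides the start, Gadd45a had 1 region, with a peak in Ezh2-Y726D replicate 2 alone (percentile 22.2). Gadd45g region 1 (chr13:51839352-51840194), at -6.9 kb from the start, was stronger than the start itself, at 74.1 to 88.6 in all lists. Region 4 (chr13:51857195-51857620) was at 20.0, 19.9 and 35.8 in GFP and 23.9 in Ezh2 replicate 1 and absent elsewhere, and was lost in Ezh2-Y726D against GFP. GFP lists thus held 4, 3 and 4 regions of Gadd45g, each Ezh2 list 3 and each Ezh2-Y726D list 2, and Ezh2 against Ezh2-Y726D differed by 1.00 with exact p = 0.1 (0.429 after adjustment). That difference was 0 in the gene body alone, 0.667 with 1 kb flanks or the q filter and 1.5 where a peak had to cover 0.5 of a region. Sox11, a SoxC transcription factor, had 2, 2 and 3 of 4 regions in GFP, 2 in each Ezh2 list and 3 and 4 in Ezh2-Y726D. Its region 1 (chr12:27328281-27328697) was at 39.4 in GFP replicate 3 and at 37.0 and 37.8 in Ezh2-Y726D, and was lost in Ezh2 against Ezh2-Y726D.

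**Figure D5:**
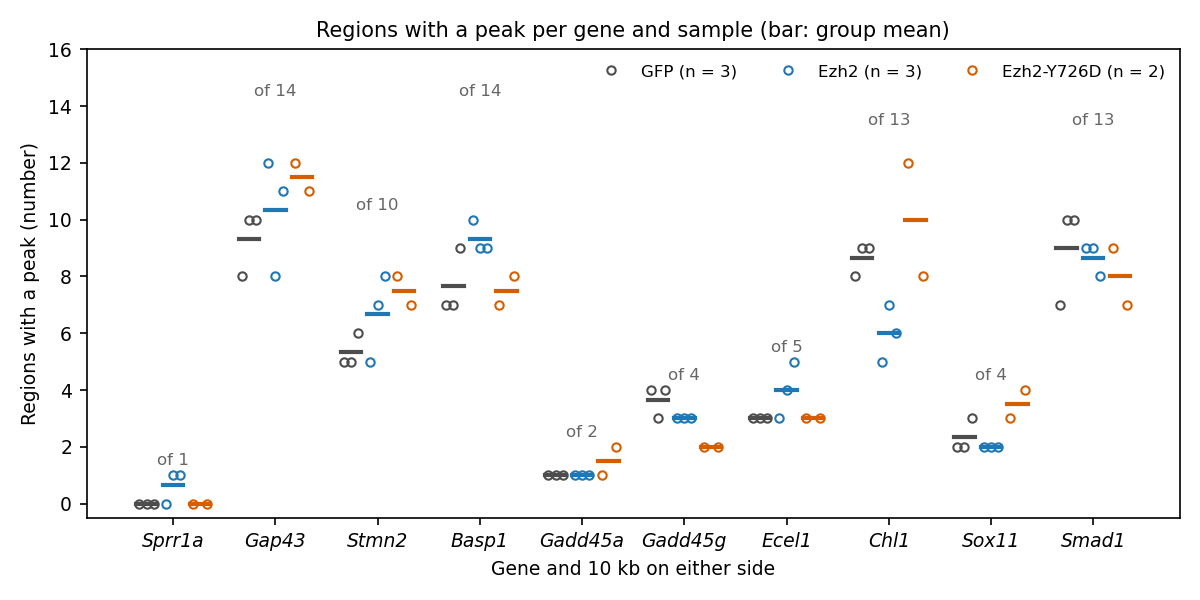
Number of regions with a peak (vertical axis) in each gene with its 10 kb flanks, with 1 circle per sample, a bar at each group mean and the number of merged regions above. Ezh2 samples were lowest at Chl1, with 5 to 7 of 13 regions, and no gene reached an adjusted exact p below 0.429.

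Of 26 other regeneration-associated genes with 55 tested regions, 0 regions were higher and 1 lower in Ezh2 against GFP (0% and 1.82%, against 1.59% and 2.84% of all regions). In Ezh2-Y726D against GFP 0 were higher and 2 lower (0% and 3.64%, against 3.55% and 4.65%), and in Ezh2 against Ezh2-Y726D 1 and 3 (1.82% and 5.45%, against 7.0% and 6.96%). The region chr15:78925663-78926972 at Lgals1, a galectin, was at 65.8, 71.9 and 57.6 in GFP, 31.1, 44.7 and 40.1 in Ezh2 samples and 69.3 and 71.9 in Ezh2-Y726D samples, lower in Ezh2 than in GFP by -0.81 (SE 0.20, limma adjusted p = 0.0460) and than in Ezh2-Y726D by -0.95 (SE 0.22, limma adjusted p = 0.0187). The region at Crem, a regulator of cyclic AMP responses, was at 90.9, 89.3 and 85.6 in GFP, 92.6, 88.3 and 94.2 in Ezh2 samples and 53.1 and 42.8 in Ezh2-Y726D samples, the difference from GFP being -1.55 (SE 0.21, limma adjusted p = 0.00438) and that of Ezh2 from Ezh2-Y726D 1.75 (SE 0.21, limma adjusted p = 0.00144). Both were clear of overlap, but in different groups. A region at Klf7 was lower in Ezh2-Y726D than in GFP (-0.81, SE 0.21, limma adjusted p = 0.0452), and one at Stat3, which relays cytokine signals, lower in Ezh2 than in Ezh2-Y726D (-0.88, SE 0.21, limma adjusted p = 0.0215). Both Crem calls were made in all 14 alternatives. The call against GFP was lost in 12 of 14 at Lgals1 and in 12 of 14 at Klf7, among them without any 1 library except GFP replicate 3 at Lgals1 and GFP replicate 1 at Klf7 (limma adjusted p up to 0.163 and 0.286). Against Ezh2-Y726D the call was lost in 4 of 14 at Lgals1 and in 4 of 14 at Stat3 (limma adjusted p up to 0.199 and 0.287), in both when peaks were ranked by −log10 p or without Ezh2-Y726D replicate 1 or 2, at Lgals1 also without Ezh2 replicate 1 and at Stat3 without Ezh2 replicate 3.

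Among 20 other genes of the growth cone and axon cytoskeleton, with 162 tested regions, 1 was higher and 6 lower in Ezh2 against GFP (0.617% and 3.70%). In Ezh2-Y726D against GFP 1 was higher and 7 lower (0.617% and 4.32%), and in Ezh2 against Ezh2-Y726D 10 and 7 (6.17% and 4.32%), all to be read against the shares of all regions just given. The region chr3:55333286-55334199 at Dclk1, a kinase that binds microtubules, was at 85.4, 88.4 and 92.2 in GFP, 44.4, 75.0 and 58.0 in Ezh2 samples and 93.8 and 89.2 in Ezh2-Y726D samples (-1.20 against GFP, SE 0.24, limma adjusted p = 0.0268, and -1.36 against Ezh2-Y726D, SE 0.27, limma adjusted p = 0.0103). As in Chl1 region 7, the Ezh2 samples were the lowest. At Cotl1, an actin-binding protein, the region chr8:119824012-119824515 was lower in Ezh2 than in GFP (-1.01, SE 0.25, limma adjusted p = 0.0492) and the nearby chr8:119828991-119831042 higher (0.94, SE 0.16, limma adjusted p = 0.0146). The first was also lower in Ezh2 than in Ezh2-Y726D (-1.40, SE 0.28, limma adjusted p = 0.00980). Both Cotl1 regions ranked low in some lists. The lower one was at 29.7, 26.7 and 27.5 in GFP, 0.924, 11.6 and 6.15 in Ezh2 samples and 40.3 and 45.7 in Ezh2-Y726D samples. The higher one was at 2.97, 4.24 and 2.81 in GFP, 23.0, 21.7 and 27.8 in Ezh2 samples and 4.10 and 5.96 in Ezh2-Y726D samples. This higher region was called in all 14 alternatives. The lower one lost its call against GFP in 12 of 13, among them without any 1 library except Ezh2 replicate 2 (limma adjusted p up to 0.124) and against Ezh2-Y726D without Ezh2-Y726D replicate 1 or 2 (limma adjusted p up to 0.0611). Dclk1 lost its call against GFP in 6 of 14 alternatives, without any 1 GFP replicate or Ezh2 replicate 1 or 3 and with the replicate block (limma adjusted p up to 0.0821), and against Ezh2-Y726D without Ezh2-Y726D replicate 1 (0.0902 in limma).

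Map1b, a microtubule-associated protein, had 2 regions lower in Ezh2-Y726D than in GFP by -1.29 (SE 0.25, limma adjusted p = 0.0145) and -1.19 (SE 0.23, limma adjusted p = 0.0139). Another, chr13:99475320-99476164, was higher in Ezh2 than in Ezh2-Y726D by 1.24 (SE 0.29, limma adjusted p = 0.0201). At Nrcam, an adhesion molecule of the same L1 family as Chl1, a region was lower in Ezh2-Y726D than in GFP by -1.22 (SE 0.30, limma adjusted p = 0.0341). Its values in Ezh2-Y726D were 10.4 and 44.9, against 65.1 to 68.0 in GFP. The 2 Map1b calls against GFP were lost without Ezh2-Y726D replicate 1 or 2 (limma adjusted p up to 0.112 and 0.0974). The third was lost in 3 of 14 alternatives, among them without Ezh2 replicate 2 or Ezh2-Y726D replicate 1 (up to 0.180 in limma), and the Nrcam call in 5 of 13, among them without any 1 GFP replicate or Ezh2-Y726D replicate 1 (up to 0.272 in limma).

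Of 17 BMP and Smad pathway genes with 70 tested regions, 0 regions were higher and 3 lower in Ezh2 against GFP (0% and 4.29%, against 1.59% and 2.84% of all regions). In Ezh2-Y726D against GFP 1 was higher and 1 lower (1.43% and 1.43%, against 3.55% and 4.65%), and in Ezh2 against Ezh2-Y726D 2 and 3 (2.86% and 4.29%, against 7.0% and 6.96%). The 3 regions lower in Ezh2 than in GFP were at the ligand Bmp7 (-0.87, SE 0.16, limma adjusted p = 0.0196), the receptor Bmpr1b (-1.33, SE 0.31, limma adjusted p = 0.0420) and Id2, a target gene of Smad proteins (-0.80, SE 0.19, limma adjusted p = 0.0463). The Bmp7 region, chr2:172865398-172866166, was at 55.7, 58.7 and 63.4 in GFP, 21.0, 33.0 and 38.3 in Ezh2 samples and 54.4 and 52.5 in Ezh2-Y726D samples, with the Ezh2 samples below all others. Smad9, which acts in parallel to Smad1, had adjacent regions that moved apart in Ezh2-Y726D against GFP, one higher by 1.23 (SE 0.23, limma adjusted p = 0.0129) and one lower by -0.91 (SE 0.19, limma adjusted p = 0.0212). The first of these was lower in Ezh2 than in Ezh2-Y726D (-0.80, SE 0.23, limma adjusted p = 0.0446), as was Id2 (-0.80, SE 0.21, limma adjusted p = 0.0352). Smad6, an inhibitor of the pathway, had a region higher in Ezh2 than in Ezh2-Y726D (0.82, SE 0.23, limma adjusted p = 0.0406). None of these calls was made in every alternative. The Bmp7 call was lost in 3 of 13, without GFP replicate 2 or 3 or Ezh2 replicate 1 (limma adjusted p up to 0.0681), the Bmpr1b call in 11 of 13, among them without any 1 library except Ezh2 replicate 2 (up to 0.123 in limma), and the Id2 call against GFP in 12 of 14, among them without any 1 of the 8 libraries (up to 0.133 in limma). The higher Smad9 region lost its call against GFP without Ezh2-Y726D replicate 1 alone (0.0996 in limma) and the lower one in 5 of 14 alternatives, among them without GFP replicate 1 or 3 or either Ezh2-Y726D replicate (up to 0.155 in limma). Against Ezh2-Y726D the calls were lost in 12 of 14 at Smad9, in 7 of 14 at Id2 and in 8 of 14 at Smad6 (limma adjusted p up to 0.301, 0.214 and 0.293), among them at each gene without Ezh2 replicate 1 or 3 or Ezh2-Y726D replicate 1.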

How the data were processed

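ATAC-seq peak lists of 8 samples of sorted mouse RGCs (3 GFP, 3 Ezh2, 2 Ezh2-Y726D, grouped by sample title) were analysed. According to the submitters' processing notes, cutadapt, Bowtie2, SAMtools, Picard, MACS2 and deepTools were used with build GRCm38. Versions and the peak threshold are not given in the sources used here. The authors called peaks per sample, not on pooled samples, and deposited for each peak a fold over local background, a −log10 p-value, a −log10 q-value, a score and a summit. The deposited fold was used to rank peaks within their own list, the −log10 p-value and −log10 q-value for alternatives, and the score was not used. The lists give no depth, so precision per value is unknown.

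Peaks sharing at least 1 bp were merged over the 8 lists, and a region took the highest fold of its peaks in a list. Gene positions and promoters came from RefSeq (GRCm38.p6), with positions counted from 1. Normal scores of ranks in the 69493 regions with a peak in all lists were fitted with limma 3.58.1 (R 4.3.3, lmFit and eBayes, all 8 samples, no covariate), with Benjamini-Hochberg adjustment over all these regions at 0.05. Numbers of regions with a peak were compared with two-sided exact permutation tests (Python 3.11.15, scipy 1.17.1), adjusted over 30 tests. Scripts were tested on simulated data. Alternatives were ranks by −log10 p, regions in at least 5 lists, the mean peak per region, peaks with −log10 q of at least 5, lists cut to equal length, a peak covering at least 0.5 of the region, gene bodies alone, 1 kb flanks, a replicate block and leaving out each sample. The genes and lists were chosen with earlier results of these data known. Named were all 10 genes with their strongest, start and called regions, and the 3 called regions per other list and comparison with the largest difference. Peak sequences, and promoters of Gap43 and Stmn2, were not analysed here.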

Additional observations from a re-analysis of the deposited data

How the results depend on the processing

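Chl1 region 7 kept both its calls in all 14 alternatives, and none of the 4 called regions of the 10 genes changed direction in any alternative. The 23 calls named at genes of the other lists kept their direction in all 316 refits and their call in 192 of them. Counts are small, so 1 region often moved them by more than 1.5 times. Regions lower in Ezh2 against GFP came to 1 (main value 2) when peaks were ranked by −log10 p and with peaks of −log10 q of at least 5, where Smad1 region 3 could not be tested, and regions gained there came to 1 (main value 2) with that q filter and with lists of equal length. In Ezh2-Y726D against GFP, gained regions came to 1 with the q filter and 2 with equal lists (main value 4), and lost regions to 1 (main value 3) in gene bodies alone or with 1 kb flanks. In Ezh2 against Ezh2-Y726D, higher regions came to 1 (main value 2) by −log10 p, in gene bodies alone and with 1 kb flanks, gained regions to 3 (main value 6) with equal lists, and lost regions to 5 with equal lists and 6 where a peak had to cover 0.5 of the region (main value 3). Narrower windows and stricter filters hold fewer regions by construction, and otherwise the cause was not tested.

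Leaving out 1 sample in turn gave, for Ezh2 against GFP, 1 to 2 regions lower, 2 to 4 gained and 0 to 2 lost. For Ezh2-Y726D against GFP it gave 0 to 1 lower, 4 to 10 gained and 3 to 5 lost, and for Ezh2 against Ezh2-Y726D 0 to 2 higher, 1 to 2 lower and 3 to 12 lost. Gained regions of the last comparison moved as well. Without Ezh2 replicate 1, Sprr1a region 1, Ecel1 region 3 and Gadd45g region 3 met the rule too. Where 1 Ezh2-Y726D sample remained, limma took its spread from the other groups. Unknown depth limits all statements on absent peaks.

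Samples share replicate numbers, but same-numbered samples deviated from their group means with correlations of only -0.015 to 0.048, so the numbers were not taken as pairs. With the number as a block, 1 region was lower in Ezh2 against GFP, since Smad1 region 3 reached a limma adjusted p of 0.0527, and all other counts stayed as they were. The peak names number the Ezh2-Y726D samples 2 and 3. A block on those numbers, chosen after seeing the data, again left 1 region lower in Ezh2 against GFP and left 0 higher in Ezh2 against Ezh2-Y726D, with limma adjusted p of 0.0626 at Ecel1 region 5 and 0.0878 at Chl1 region 3.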
